A study of Homo sapiens with 12 samples.

Results

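ACOD1 and 8 other enzyme genes linked to inflammation were described here as a group of 9 among the 58735 genes of an RNA sequencing table. The 9 were chosen by gene name: ACOD1, SOD2, KYNU, IDO1, NAMPT, NNMT, TYMP, PTGS2 and PTGES. Where a name had several identifiers, the identifier with the highest mean level was taken. ACOD1 leads the group because its level with mix differed between the siRNA arms in an earlier reading of these data, and the other genes were grouped with results of these data in view. The table covers 12 libraries of HaCaT cells, an immortalized line of human keratinocytes, in 4 groups of 3. The groups were PHGDH-siRNA+Mix, PHGDH-siRNA, Control-siRNA+Mix and Control-siRNA. All cells carried an siRNA, directed at PHGDH or a control, and the +Mix groups were in addition treated for 24 h with a stimulus that the labels call mix. What the mix contains is not given in the sources used here.

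These enzymes change small molecules that cells make or use under inflammation. ACOD1 turns cis-aconitate, an intermediate of the citric acid cycle, into itaconate, and is best known from activated macrophages. IDO1 and KYNU act on tryptophan and its product kynurenine, NAMPT and NNMT on nicotinamide and so on NAD, TYMP on thymidine, SOD2 on mitochondrial superoxide, and PTGS2 and PTGES work in sequence to make prostaglandin E2. PHGDH, the target of the siRNA, opens the serine synthesis pathway.

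The files give FPKM, a read count scaled by gene length and by library size, and whole reads could be recovered from them. The libraries held 16403845 to 20901128 recovered reads and 21348 to 22510 genes above 0. PHGDH averaged 14.6 ± 3.96 FPKM in PHGDH-siRNA+Mix and 29.9 ± 2.88 FPKM in Control-siRNA+Mix, and 20.2 ± 3.44 FPKM in PHGDH-siRNA and 46.2 ± 9.84 FPKM in Control-siRNA (SD, n = 3 each). The PHGDH-siRNA arms therefore retained PHGDH RNA, and although the libraries did not overlap, PHGDH did not pass the test across all genes (adjusted p = 0.200 with mix and 0.128 without). The keratinocyte label was checked with 10 markers (among them KRT5, KRT14 and TP63), all of which were expressed, while all 6 T cell markers had at most 5 reads in every library. Among markers of other cell types, at most 5 reads in every library were found for 4 of 8 of fibroblasts, 2 of 4 of endothelial cells and 2 of 4 of melanocytes, and the most reads in a library were 271 for COL1A1, 180 for VWF and 51 for PMEL. The fibroblast markers summed to 1.26 to 1.48 FPKM in PHGDH-siRNA+Mix, 1.57 to 2.02 FPKM in PHGDH-siRNA, 0.565 to 0.869 FPKM in Control-siRNA+Mix and 1.69 to 2.11 FPKM in Control-siRNA, and COL3A1 was called lower with mix in the Control-siRNA arm (adjusted p = 0.012). Their part in the results was not tested. Replicate 2 of PHGDH-siRNA+Mix and replicate 2 of PHGDH-siRNA stood apart from replicates 1 and 3 of their groups, in many genes alike, so results are also given without this pair. The labels do not say whether replicates were separate cultures, so the p-values reflect the spread among these libraries alone, which may be technical.

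Upstream sequence is shown for 3 genes that were low or unread without mix and higher with it, ACOD1, PTGS2 and KYNU. The windows are the 250 bases before the RefSeq start (GRCh38.p14), for ACOD1 chr13:76948261-76948510 on the + strand, for PTGS2 chr1:186680424-186680673 on the - strand, and for KYNU chr2:142877414-142877663 on the + strand. Capitals mark matches to the motifs searched.
ACOD1: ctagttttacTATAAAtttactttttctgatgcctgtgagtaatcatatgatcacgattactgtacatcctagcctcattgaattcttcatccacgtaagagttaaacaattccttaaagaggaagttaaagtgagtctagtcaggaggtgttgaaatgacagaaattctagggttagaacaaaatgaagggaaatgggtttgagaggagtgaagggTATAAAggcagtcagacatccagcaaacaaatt
PTGS2: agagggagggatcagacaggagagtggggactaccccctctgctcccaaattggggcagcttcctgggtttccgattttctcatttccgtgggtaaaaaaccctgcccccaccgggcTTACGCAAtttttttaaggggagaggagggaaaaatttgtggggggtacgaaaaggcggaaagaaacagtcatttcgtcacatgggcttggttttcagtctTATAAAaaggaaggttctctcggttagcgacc
KYNU: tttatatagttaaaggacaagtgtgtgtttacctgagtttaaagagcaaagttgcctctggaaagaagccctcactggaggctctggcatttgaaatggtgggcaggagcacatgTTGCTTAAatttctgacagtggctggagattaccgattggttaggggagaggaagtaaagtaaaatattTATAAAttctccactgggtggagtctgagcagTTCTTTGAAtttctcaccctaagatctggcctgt

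Each of these windows held a TATA box (TATAAA, searched on the gene's strand), from base -33 to -28 before the start in ACOD1, with another from -240 to -235, from -32 to -27 in PTGS2 and from -66 to -61 in KYNU. No other member's window held one, among 7 members with 11 windows in the table, and 6.8% of 35116 windows of that length did. A C/EBP motif (TTGCNNAA, either strand) lay from -133 to -126 in PTGS2 and from -135 to -128 in KYNU, as in 9.05% of windows. KYNU also held the STAT motif TTCNNNGAA from -34 to -26, found in 6.57% of windows. The KYNU gene as counted here starts at chr2:142877498, inside this window. Its matches therefore lie before the RefSeq start but within the counted gene. No member's window matched the NF-kappaB motif (5.21% of windows), the ISRE motif (3.02%), TGANTCA (AP-1, 6.57%) or TGACGTCA (CRE, 1.65%), searched on both strands. Only exact matches were counted, so the PTGS2 stretch gggactaccc, a single base away from the NF-kappaB motif searched, was not. The lack of a match is thus not the lack of a site. A match is a description of letters and not of binding.

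With mix, 6 of the 9 genes rose in both siRNA arms: ACOD1, SOD2, KYNU, NAMPT, TYMP and PTGS2. The test was limma on log2(FPKM + 1) over 14577 genes with a mean of at least 0.5 FPKM in a group, with p adjusted over all of them and a threshold of 0.05. In the PHGDH-siRNA arm 6 of 8 tested members were called, all higher, beside 8.86% of all genes called in either direction and 5.22% called higher. In the Control-siRNA arm 6 of 8 were called, all higher, beside 9.54% in either direction and 5.62% higher. NNMT and PTGES did not pass with all libraries, and IDO1 was too low to be tested. Because ACOD1 and KYNU entered the test only through the mix groups, and the members were chosen with results in view, these counts describe the group and support nothing. The median log2 fold change of the 8 was 1.91 in the PHGDH-siRNA arm and 2.46 in the Control-siRNA arm, beside 0 and 0.004 over all genes. In bulk RNA, fewer expressing cells and less RNA per cell cannot be told apart.

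**Figure D1:**
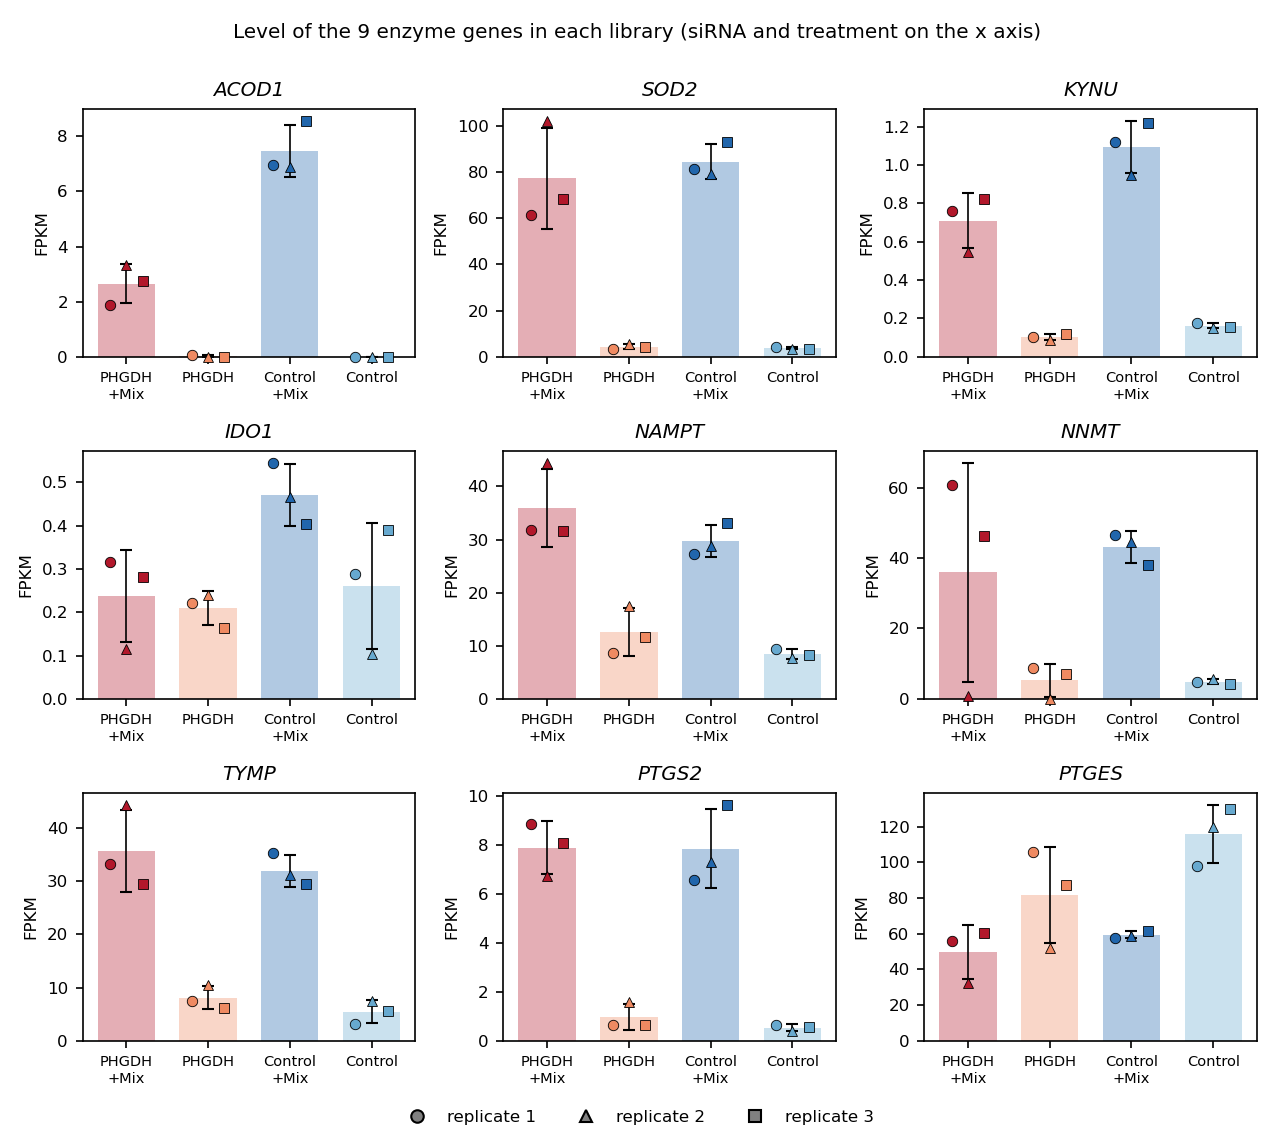
FPKM of the 9 enzyme genes by group, with bars for the mean of 3 libraries, error bars for the SD and a marker for each library. ACOD1 is at or near 0 without mix and averages 2.66 FPKM in PHGDH-siRNA+Mix and 7.47 FPKM in Control-siRNA+Mix, and replicate 2 of NNMT is near 0 in PHGDH-siRNA+Mix and PHGDH-siRNA.

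ACOD1 (ENSG00000102794, chr13:76948497-76958642, + strand, hg38) was read almost only in cells with mix. Its levels were 1.89, 3.33 and 2.76 FPKM in PHGDH-siRNA+Mix, against 0.0832, 0 and 0 FPKM in PHGDH-siRNA. In the control arm they were 6.96, 6.87 and 8.56 FPKM in Control-siRNA+Mix, against 0 FPKM in all 3 Control-siRNA libraries. Without mix the only reads were 3 in a single PHGDH-siRNA library. By reads, PHGDH-siRNA+Mix held 325 and PHGDH-siRNA held 3, a depth-scaled ratio of 97.5 with a 95% counting interval of 33.1 to 475.4. Control-siRNA+Mix held 894 reads and Control-siRNA none, which makes it at least 283-fold higher when the floor of 3 reads is taken over the group. On the log2(FPKM + 1) scale the change was 1.81 (SE 0.15, adjusted p = 3.98e-05) in the PHGDH-siRNA arm and 3.08 (SE 0.15, adjusted p = 4.78e-07) in the Control-siRNA arm.

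With mix, every PHGDH-siRNA library lay below every Control-siRNA library for ACOD1. The means were 2.66 ± 0.723 FPKM in PHGDH-siRNA+Mix and 7.47 ± 0.953 FPKM in Control-siRNA+Mix (SD, n = 3 each), a 2.81-fold lower level and a log2 difference of -1.22 (SE 0.15). ACOD1 was singled out for this difference, so it is a description and supports nothing. It was the 1 member of 8 past the threshold in this comparison, beside 0.0206% of all genes (3 of 14577), and it was no longer past it under 5 of the alternative settings. Leaving out any single Control-siRNA+Mix library or replicate 3 of PHGDH-siRNA+Mix also ended the call. Without the replicate 2 pair the difference was -1.36 (SE 0.14). The interaction, which is the mix change in the PHGDH-siRNA arm minus that in the Control-siRNA arm and shares the same mix libraries, was -1.26 (SE 0.21, adjusted p = 1.00).

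Macrophages are the best known source of ACOD1 RNA, so their markers are given beside it. Of 12 macrophage and monocyte markers, 8 had at most 5 reads in any library, among them PTPRC, AIF1 and TYROBP at 0 in every library. The most reads in a library were 93 for CD14, 59 for CSF1R, 45 for ITGAM and 13 for CD163. Only CD14 was abundant enough to be tested, and it did not pass in any comparison. The 12 levels summed to 0.679 to 2.54 FPKM in PHGDH-siRNA+Mix, 0.609 to 3.46 FPKM in PHGDH-siRNA, 2.48 to 3.34 FPKM in Control-siRNA+Mix and 1.81 to 2.14 FPKM in Control-siRNA. The sum's part in the ACOD1 difference was not tested.

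SOD2 (ENSG00000112096, chr6:159669057-159745186, - strand), the manganese superoxide dismutase of mitochondria, had the largest change of the 8 tested members in both arms on the log2(FPKM + 1) scale, while by reads, with a pseudocount of 0.1 and by voom ACOD1 changed more. It stood at 61.2, 102.2 and 68.3 FPKM in PHGDH-siRNA+Mix, against 3.36, 5.67 and 4.04 FPKM in PHGDH-siRNA. Under control siRNA it stood at 81.3, 78.9 and 93.0 FPKM in Control-siRNA+Mix, against 4.09, 3.53 and 3.43 FPKM in Control-siRNA. The groups with and without mix were far apart and the siRNA arms overlapped. The means were 17.7-fold higher with mix in the PHGDH-siRNA arm (log2 change 3.86, SE 0.20, adjusted p = 1.15e-06) and 22.9-fold higher in the Control-siRNA arm (4.19, SE 0.20, adjusted p = 4.78e-07). SOD2 ranked 19 of 14577 genes by log2 change in each arm. WTAP lies on the opposite strand and overlaps SOD2, and whether counting used strand is not given in the sources used here. WTAP averaged 11.5 FPKM in PHGDH-siRNA+Mix and 6.51 FPKM in PHGDH-siRNA, and 10.2 FPKM in Control-siRNA+Mix and 5.94 FPKM in Control-siRNA.

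KYNU (ENSG00000115919, chr2:142877498-143055832, + strand), or kynureninase, cleaves kynurenine and 3-hydroxykynurenine. It was low in every library, and FPKM divides its reads by an annotated length of 17600 bases. Its levels were 0.760, 0.547 and 0.820 FPKM in PHGDH-siRNA+Mix, against 0.103, 0.0888 and 0.119 FPKM in PHGDH-siRNA. In the Control-siRNA arm they were 1.12, 0.946 and 1.22 FPKM in Control-siRNA+Mix, against 0.176, 0.153 and 0.156 FPKM in Control-siRNA. The 4 groups did not overlap. With mix the mean was 6.85-fold higher in the PHGDH-siRNA arm (log2 change 0.63, SE 0.11, adjusted p = 0.00634) and 6.76-fold higher in the Control-siRNA arm (0.85, SE 0.11, adjusted p = 0.00083), the log2 values being small because of the added 1 FPKM. PHGDH-siRNA+Mix was 1.54-fold lower than Control-siRNA+Mix, which did not pass (-0.29, SE 0.11, adjusted p = 0.794). Without mix PHGDH-siRNA was 1.56-fold lower than Control-siRNA, which did not pass either (-0.07, SE 0.11).

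IDO1 (ENSG00000131203), which opens the kynurenine pathway and is a known target of interferon-gamma, stayed near the limit of reading. It had 20, 7 and 17 reads in PHGDH-siRNA+Mix, against 12, 15 and 10 reads in PHGDH-siRNA. It had 31, 28 and 25 reads in Control-siRNA+Mix, against 17, 6 and 24 reads in Control-siRNA. The PHGDH-siRNA groups overlapped, and each Control-siRNA+Mix library lay above each library of the other groups. The means were 0.238 ± 0.107 FPKM in PHGDH-siRNA+Mix and 0.209 ± 0.0394 FPKM in PHGDH-siRNA, and 0.472 ± 0.0716 FPKM in Control-siRNA+Mix and 0.261 ± 0.145 FPKM in Control-siRNA (SD, n = 3 each). In a fit without the filter, on 32520 genes, the mix change was 0.03 (adjusted p = 1.00) in the PHGDH-siRNA arm and 0.23 (adjusted p = 0.409) in the Control-siRNA arm.

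The rest of the kynurenine pathway was sparsely expressed. Of 10 other genes, 4 could be tested and none was called higher, beside 5.22% of all genes in the PHGDH-siRNA arm and 5.62% in the Control-siRNA arm. KYAT1 was called lower in both arms, beside 3.64% of all genes in the PHGDH-siRNA arm and 3.92% in the Control-siRNA arm. KYAT1, a kynurenine aminotransferase, averaged 2.73 ± 0.505 FPKM in PHGDH-siRNA+Mix and 4.74 ± 1.09 FPKM in PHGDH-siRNA (log2 change -0.61, SE 0.15, adjusted p = 0.0298). With control siRNA it averaged 2.34 ± 0.257 FPKM in Control-siRNA+Mix and 4.42 ± 0.357 FPKM in Control-siRNA (-0.70, SE 0.15, adjusted p = 0.0153).

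NAMPT (ENSG00000105835, chr7:106248285-106286326, - strand), the rate-limiting enzyme of NAD salvage from nicotinamide, rose in both arms. It stood at 31.7, 44.5 and 31.6 FPKM in PHGDH-siRNA+Mix, against 8.57, 17.6 and 11.7 FPKM in PHGDH-siRNA. In the control arm it stood at 27.2, 28.8 and 33.1 FPKM in Control-siRNA+Mix, against 9.40, 7.62 and 8.32 FPKM in Control-siRNA. The mean was 2.85-fold higher with mix in the PHGDH-siRNA arm (log2 change 1.48, SE 0.22, adjusted p = 0.00208) and 3.52-fold higher in the Control-siRNA arm (1.70, SE 0.22, adjusted p = 0.000693). In both PHGDH-siRNA groups replicate 2 was the highest library. NAMPT may share reads with near copies, so its values are uncertain to that extent. The pseudogene NAMPTP1 on chromosome 10 averaged 8.96 FPKM in PHGDH-siRNA+Mix and 3.39 FPKM in PHGDH-siRNA, and 6.63 FPKM in Control-siRNA+Mix and 2.34 FPKM in Control-siRNA.

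NNMT (ENSG00000166741, chr11:114257787-114313285, + strand), which methylates nicotinamide with S-adenosylmethionine, varied widely between replicates of the PHGDH-siRNA groups. It stood at 60.7, 0.852 and 46.2 FPKM in PHGDH-siRNA+Mix, against 8.71, 0.0179 and 6.93 FPKM in PHGDH-siRNA. Under control siRNA it stood at 46.7, 44.6 and 38.1 FPKM in Control-siRNA+Mix, against 4.71, 5.77 and 4.28 FPKM in Control-siRNA. Replicate 2 was nearly empty in both PHGDH-siRNA groups, with 46 reads with mix and 1 read without, and all other libraries with mix lay above all those without. In the PHGDH-siRNA arm the change did not pass with all libraries (2.04, SE 1.18, adjusted p = 0.356). It passed with the replicate as a block in that arm (adjusted p = 0.00148) and without the pair (2.62, SE 0.18, adjusted p = 2.90e-05). In the Control-siRNA arm the mean was 8.77-fold higher with mix, and the change did not pass in the fit that shares 1 spread over all groups (2.90, SE 1.18, adjusted p = 0.170) but passed without the pair (adjusted p = 1.95e-06). It also passed in a fit of the control groups alone (adjusted p = 2.38e-05). PHGDH-siRNA against Control-siRNA changed sign with the pair, from -1.33 (SE 1.18, adjusted p = 0.979) with it to 0.30 (SE 0.16, adjusted p = 0.576) without it, in the mix groups.

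**Figure D2:**
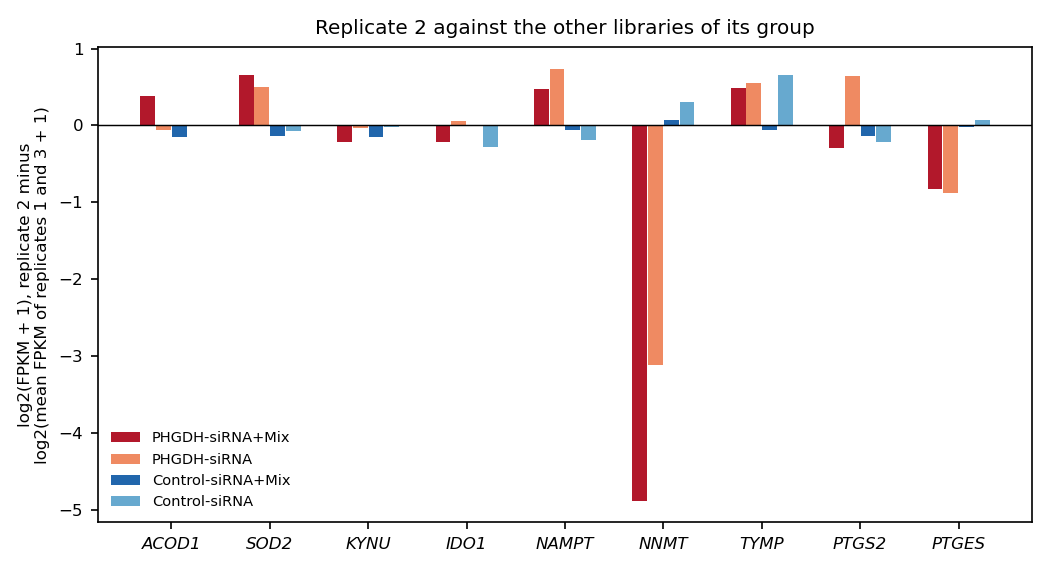
Level of replicate 2 minus that of the mean of replicates 1 and 3 of the same group, on the log2(FPKM + 1) scale, for the 9 enzyme genes in the 4 groups (1 bar per group). NNMT is -4.88 in PHGDH-siRNA+Mix and -3.12 in PHGDH-siRNA, PTGES is -0.82 and -0.87, and the Control-siRNA bars of both genes are small.

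No other gene of NAD synthesis and use passed with all libraries. Of 18 genes in that list 12 were tested and limma called 0 in either arm, with 4 at an unadjusted p under 0.05 in the PHGDH-siRNA arm and 3 in the Control-siRNA arm, beside 22% and 22.1% of all genes. Without the replicate 2 pair 1 was called higher and 1 lower in the PHGDH-siRNA arm, and 2 higher and 1 lower in the Control-siRNA arm. Over all genes, that fit called 2190 in the PHGDH-siRNA arm and 3023 in the Control-siRNA arm, in either direction. With all libraries the calls were 1291 and 1391. Voom on the recovered reads called 1 in each arm. The list's median log2 change was 0.14 in the PHGDH-siRNA arm and 0.13 in the Control-siRNA arm.

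TYMP (ENSG00000025708, chr22:50525752-50530056, - strand), thymidine phosphorylase, releases thymine from thymidine. It stood at 33.1, 44.3 and 29.4 FPKM in PHGDH-siRNA+Mix, against 7.51, 10.5 and 6.25 FPKM in PHGDH-siRNA. In the Control-siRNA arm it stood at 35.2, 31.1 and 29.4 FPKM in Control-siRNA+Mix, against 3.21, 7.55 and 5.66 FPKM in Control-siRNA. Libraries with mix lay above all those without, and the mean was 4.40-fold higher in the PHGDH-siRNA arm (log2 change 2.01, SE 0.26, adjusted p = 0.000756) and 5.83-fold higher in the Control-siRNA arm (2.40, SE 0.26, adjusted p = 0.000177). ODF3B and SCO2 overlap TYMP on its own strand and could share reads with it, reaching 6.08 FPKM and 0.224 FPKM. ODF3B averaged 4.19 FPKM in PHGDH-siRNA+Mix and 2.32 FPKM in PHGDH-siRNA, and 3.95 FPKM in Control-siRNA+Mix and 1.35 FPKM in Control-siRNA. Its part in the TYMP values was not tested. Of 13 other genes listed for pyrimidine nucleoside salvage and breakdown, among them the purine enzyme PNP, 10 were tested. In either arm 0 were called higher, beside 5.22% of all genes in the PHGDH-siRNA arm and 5.62% in the Control-siRNA arm. TYMS and TK1, which make thymidylate, were the 2 called lower in each arm, beside 3.64% and 3.92% of all genes. With the pair of replicate 2 libraries left out, 2 were higher and 2 lower in each arm. That fit called 2190 of all genes in the PHGDH-siRNA arm and 3023 in the Control-siRNA arm, in either direction. TYMS changed by -0.77 (SE 0.13, adjusted p = 0.00458) in the PHGDH-siRNA arm and by -0.51 (SE 0.13, adjusted p = 0.0363) in the Control-siRNA arm. TK1 changed by -0.83 (SE 0.16, adjusted p = 0.0108) in the PHGDH-siRNA arm and by -0.58 (SE 0.16, adjusted p = 0.0491) in the Control-siRNA arm.

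Of the prostaglandin E2 enzymes, PTGS2 rose with mix and PTGES had lower means with mix that did not pass with all libraries. PTGS2 (ENSG00000073756, chr1:186671791-186680427, - strand), the inducible cyclooxygenase, stood at 8.87, 6.72 and 8.09 FPKM in PHGDH-siRNA+Mix, against 0.653, 1.58 and 0.651 FPKM in PHGDH-siRNA. With control siRNA it stood at 6.57, 7.32 and 9.65 FPKM in Control-siRNA+Mix, against 0.663, 0.382 and 0.553 FPKM in Control-siRNA. The mean was 8.20-fold higher with mix in the PHGDH-siRNA arm (log2 change 2.21, SE 0.20, adjusted p = 7.35e-05) and 14.7-fold higher in the Control-siRNA arm (2.52, SE 0.20, adjusted p = 1.77e-05). With mix the siRNA arms had close means, 7.89 ± 1.09 FPKM in PHGDH-siRNA+Mix and 7.85 ± 1.61 FPKM in Control-siRNA+Mix (SD, n = 3 each).

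PTGES (ENSG00000148344, chr9:129738331-129753047, - strand), the prostaglandin E synthase that acts on the product of PTGS2, was the member with the highest mean FPKM in the absence of mix. It stood at 55.8, 32.5 and 60.7 FPKM in PHGDH-siRNA+Mix, against 105.7, 52.3 and 87.2 FPKM in PHGDH-siRNA. In the control arm it stood at 57.8, 58.9 and 61.6 FPKM in Control-siRNA+Mix, against 97.8, 120.1 and 130.0 FPKM in Control-siRNA. The control groups did not overlap, and in the PHGDH-siRNA arm replicate 2 was the lowest library of each group. The change was -0.70 (SE 0.27, adjusted p = 0.159) in the PHGDH-siRNA arm and -0.94 (SE 0.27, adjusted p = 0.0546) in the Control-siRNA arm. With the replicate as a block in the PHGDH-siRNA arm the adjusted p in that arm was 0.0034, and without the pair PTGES passed in the PHGDH-siRNA arm (-0.71, adjusted p = 0.0135) and in the Control-siRNA arm (-0.94, adjusted p = 0.00078). With that block all 8 tested members passed in the PHGDH-siRNA arm. The share of all genes called with the block is not given here, so this count describes the members alone.

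Among 19 other prostaglandin genes 12 were tested and 0 were called higher in either arm, beside 5.22% and 5.62% of all genes. In the PHGDH-siRNA arm 1 was called lower and in the Control-siRNA arm 3, beside 3.64% and 3.92% of all genes. Without the replicate 2 pair 3 were called lower in the PHGDH-siRNA arm and 4 in the Control-siRNA arm. That fit called 2190 of all genes in the PHGDH-siRNA arm and 3023 in the Control-siRNA arm, in either direction. PTGER2, the EP2 receptor, was called lower in both (-0.80, SE 0.17, adjusted p = 0.0168 in the PHGDH-siRNA arm and -0.87, SE 0.17, adjusted p = 0.00981 in the Control-siRNA arm). HPGD, which inactivates prostaglandin E2, averaged 0.629 ± 0.687 FPKM in PHGDH-siRNA+Mix and 2.31 ± 0.578 FPKM in PHGDH-siRNA, and did not pass there (-1.08, SE 0.33, adjusted p = 0.0661). It averaged 0.415 ± 0.0497 FPKM in Control-siRNA+Mix and 5.38 ± 2.46 FPKM in Control-siRNA, and was called lower (-2.09, SE 0.33, adjusted p = 0.00218). PTGIS, prostacyclin synthase, was called lower in the Control-siRNA arm (-0.82, SE 0.14, adjusted p = 0.00372). In the interaction, HPGD (1.00, SE 0.46) and PTGIS (0.51, SE 0.20) did not pass (adjusted p = 1.00 for each), so the arms were not shown to differ.

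**Figure D3:**
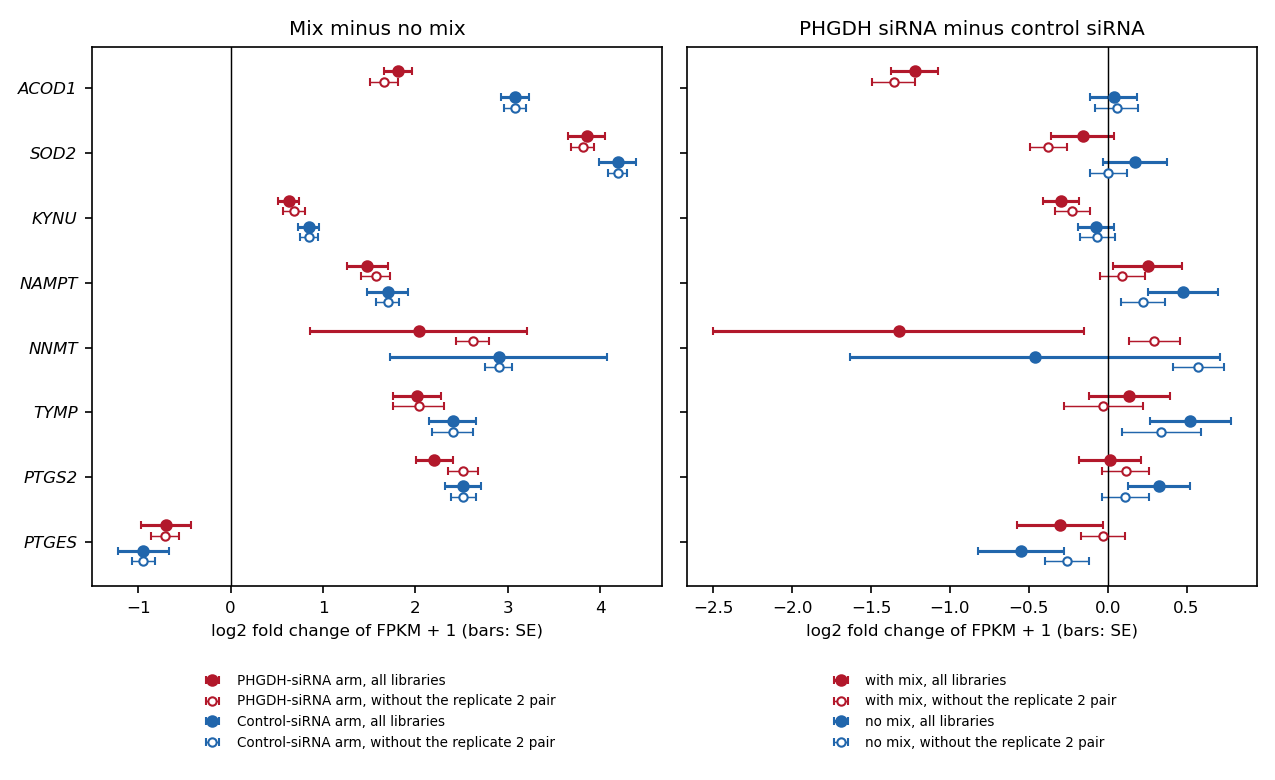
Log2 fold change of FPKM + 1 with its SE for the 8 tested enzyme genes, with mix minus no mix on the left and PHGDH siRNA minus control siRNA on the right, with filled points for all libraries and open points without the replicate 2 pair. ACOD1 with mix is at -1.22 on the right, and NNMT is the gene whose points move most without the pair.

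The genes around ACOD1 and SOD2 were also read from lists. Of 24 genes listed for the citric acid cycle 23 were tested and 0 were called higher in either arm, beside 5.22% and 5.62% of all genes. The list also holds genes outside the cycle itself, among them ACLY, SLC25A1 and the cytosolic IDH1. In the PHGDH-siRNA arm 3 were lower and in the Control-siRNA arm 5, beside 3.64% and 3.92% of all genes. Leaving out the replicate 2 pair, 4 were lower in the PHGDH-siRNA arm and 6 in the Control-siRNA arm. Of all genes, 2190 and 3023 were then called in these arms, in either direction. FH, the fumarate hydratase, changed by -0.55 (SE 0.11) in each arm (adjusted p = 0.0113 in the PHGDH-siRNA arm and 0.0100 in the Control-siRNA arm). MDH2, the mitochondrial malate dehydrogenase, changed by -0.55 (SE 0.13, adjusted p = 0.0230) in the PHGDH-siRNA arm and by -0.59 (SE 0.13, adjusted p = 0.0153) in the Control-siRNA arm. SUCLG1, a subunit of succinyl-CoA ligase, changed by -0.38 (SE 0.10, adjusted p = 0.0322) in the PHGDH-siRNA arm and by -0.46 (SE 0.10, adjusted p = 0.0128) in the Control-siRNA arm. IDH1, the cytosolic isocitrate dehydrogenase, was called in the Control-siRNA arm (-0.73, SE 0.11, adjusted p = 0.00176) and not in the PHGDH-siRNA arm (-0.20, SE 0.11, adjusted p = 0.319), and its interaction did not pass (0.52, SE 0.16, adjusted p = 1.00). The list's median was -0.24 in the PHGDH-siRNA arm and -0.21 in the Control-siRNA arm.

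Of 28 superoxide and peroxide genes 22 were tested. In the PHGDH-siRNA arm 5 were called higher and 0 lower, and in the Control-siRNA arm 5 higher and 2 lower, the same 5 being higher in both. Over all genes 5.22% were higher and 3.64% lower in the PHGDH-siRNA arm, and 5.62% and 3.92% in the Control-siRNA arm. Without the replicate 2 pair 5 were higher and 2 lower in the PHGDH-siRNA arm, and 5 higher and 4 lower in the Control-siRNA arm. Of all genes, 2190 and 3023 were then called in these arms, in either direction. GPX3, a secreted glutathione peroxidase, changed by 1.34 (SE 0.22, adjusted p = 0.00367) in the PHGDH-siRNA arm and 1.53 (SE 0.22, adjusted p = 0.00135) in the Control-siRNA arm. DUOX2, which makes hydrogen peroxide, changed by 0.68 (SE 0.17, adjusted p = 0.0282) in the PHGDH-siRNA arm and 0.91 (SE 0.17, adjusted p = 0.00605) in the Control-siRNA arm. Its maturation factor DUOXA2 changed by 0.62 (SE 0.15, adjusted p = 0.0265) in the PHGDH-siRNA arm and 1.19 (SE 0.15, adjusted p = 0.000511) in the Control-siRNA arm.

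**Figure D4:**
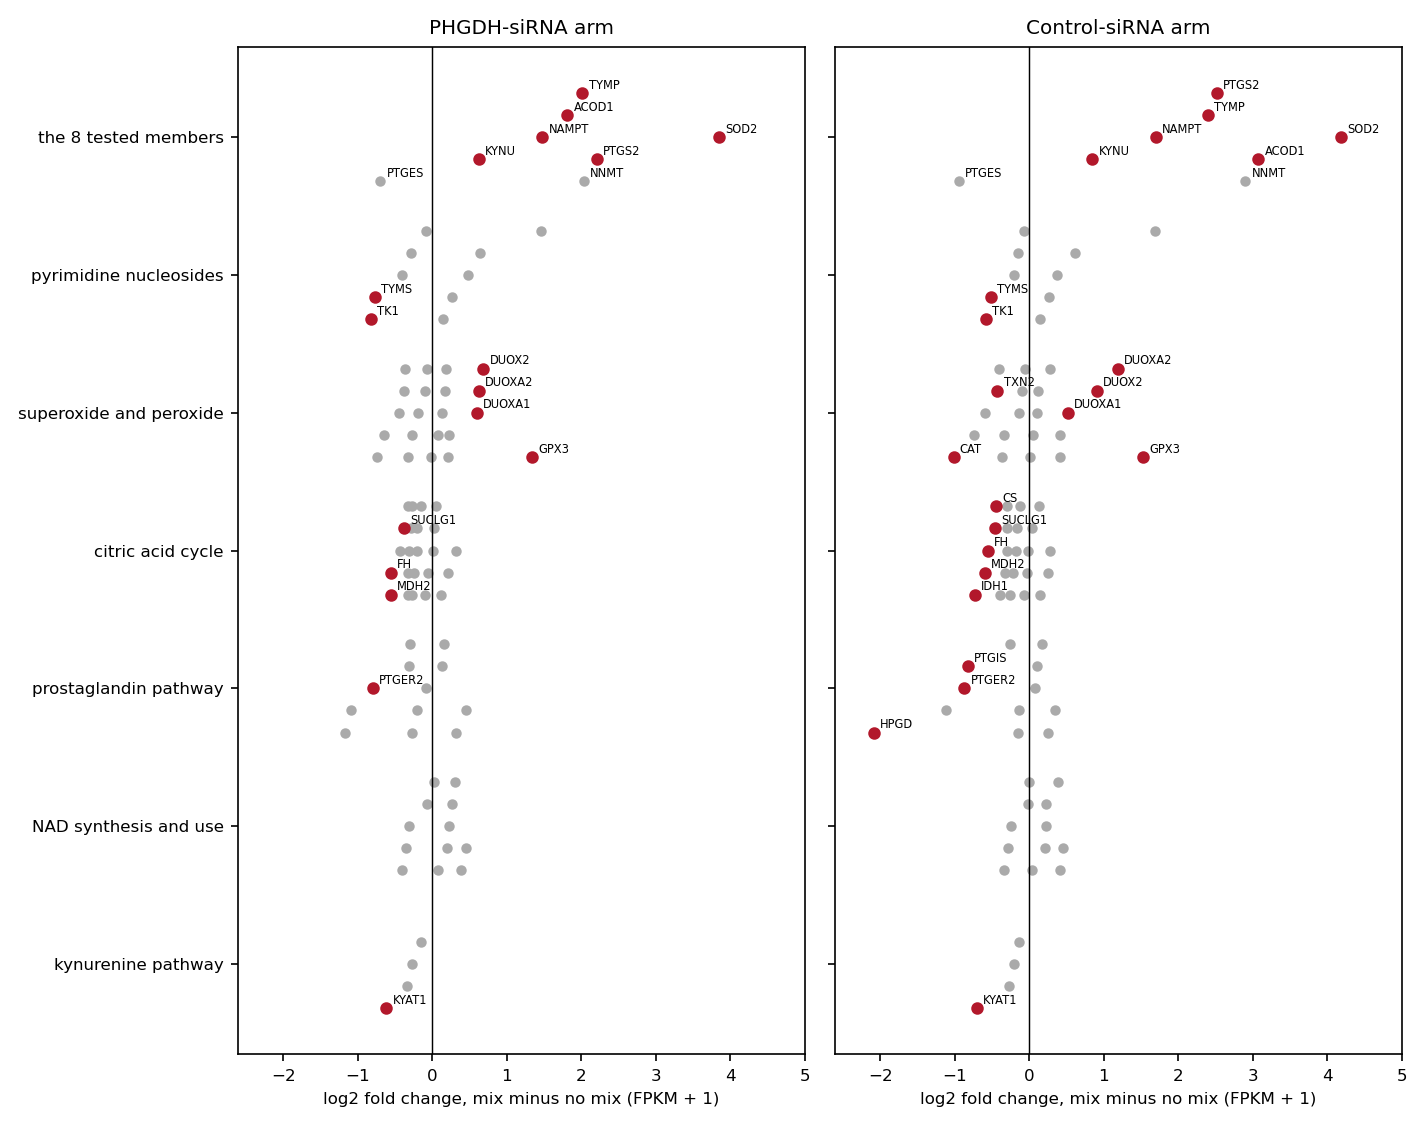
Log2 fold change with mix minus no mix (FPKM + 1) of the tested genes of the 6 lists (1 gene is not drawn) and of the 8 tested enzyme genes, PHGDH-siRNA arm on the left and Control-siRNA arm on the right, with red points for adjusted p under 0.05. SOD2 is the farthest to the right in both panels, and no gene of the NAD list is red.

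Between the siRNA arms, ACOD1 with mix was the single member past the threshold. Without mix 0 of 8 members passed, beside 0.0412% of all genes, and 0 had an unadjusted p under 0.05 or were called by voom. The lowest adjusted p there was that of NAMPT, with 12.6 ± 4.56 FPKM in PHGDH-siRNA and 8.45 ± 0.899 FPKM in Control-siRNA (0.48, SE 0.22, adjusted p = 0.794). For the interaction limma called 0 of 8, beside 0% of all genes, 1 member (ACOD1) had an unadjusted p under 0.05 and voom called 0. Of 83 tested genes in the 6 lists, 0 passed in either siRNA comparison or the interaction; at an unadjusted p under 0.05 there were 2 with mix, 6 without mix and 3 for the interaction, beside 5.72%, 6.41% and 1.72% of all genes, and voom called 0.

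The genes most like ACOD1 across the 12 samples were NFKBIZ, IL20, CNGB1, SLC10A6 and CFB. Likeness was the root mean square difference of centred log2(FPKM + 1), which was 0.37 for NFKBIZ, IL20 and CNGB1 and 0.39 for SLC10A6 and CFB. IL20 averaged 2.97 FPKM in PHGDH-siRNA+Mix and 0.0696 FPKM in PHGDH-siRNA, and 5.46 FPKM in Control-siRNA+Mix and 0.0119 FPKM in Control-siRNA. NFKBIZ averaged 11.3 FPKM in PHGDH-siRNA+Mix and 2.38 FPKM in PHGDH-siRNA, and 15.03 FPKM in Control-siRNA+Mix and 2.09 FPKM in Control-siRNA. Genes nearest to the other members were C1S and S100A12 for SOD2, POLB and CMIP for KYNU, CTC1 and LINC00174 for IDO1, KLF7 and GPR143 for NAMPT, AREG and IL37 for NNMT, ITGA5 and WFDC5 for TYMP, FAM83A for PTGS2, and FOXA1 and UNG for PTGES. By the order of group means, ACOD1, SOD2, KYNU and IDO1 were highest in Control-siRNA+Mix, NAMPT in PHGDH-siRNA+Mix and PTGES in Control-siRNA, and the PHGDH-siRNA+Mix and Control-siRNA+Mix libraries overlapped for SOD2 and NAMPT. NNMT was highest in Control-siRNA+Mix and TYMP in PHGDH-siRNA+Mix with all libraries, and both orders turned round without the replicate 2 pair. For PTGS2 the mix groups could not be ordered, since leaving out single libraries turned their order round.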

How the data were processed

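RNA was measured in 12 HaCaT libraries, 4 groups of 3. Libraries were made with a NEBNext Ultra kit, per the labels' protocols. Tools listed in the submitters' processing notes are featureCounts 1.5.0-p3, HISAT2 2.0.5 and CASAVA, with hg38 as the build and no settings. The authors deposited FPKM for 58735 genes. Whole reads were recovered from FPKM and gene length (100% of values up to 200 reads within 0.05 of a whole number), so a fit on them was run beside the main one. Identifiers matched GENCODE 29, with all 9 members at the same coordinates, and RefSeq supplied upstream sequences for 7 of them.

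Members and lists were chosen with earlier results of these data known. Genes whose mean reached 0.5 FPKM in at least 1 group were tested with limma 3.58.1 (R 4.3.3; trend, robust) on log2(FPKM + 1), with 4 group means, 8 residual degrees of freedom and Benjamini-Hochberg adjustment over 14577 genes in each of 5 comparisons; this scale understates changes of low genes. The fit was tested on simulated counts, with the same spread for all genes and changes planted in well-read genes only. That test does not cover genes with few or no reads, or an outlying pair of libraries. Counting intervals are exact and cover counting error only. Named genes were the members, PHGDH, up to 4 called genes per list by adjusted p, and the genes of nearest pattern; 2 of these genes are not reported here. Same-numbered libraries deviated together in the PHGDH-siRNA arms (correlations 0.69, 0.775 and 0.459) but not over all groups (-0.387 to 0.775), so a replicate block was used beside the main fit in those arms.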

Additional observations from a re-analysis of the deposited data

How the results depend on the processing

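Among the alternative values for single members, 534 kept their direction and side of the threshold, 13 newly passed, 11 no longer passed and 16 changed sign or reached 0. The count of members called, PHGDH siRNA against control siRNA with mix (1, ACOD1), was 0 with a pseudocount of 0.1 (adjusted p = 0.298), with no filter (0.0518), with voom on recovered reads (0.208), with the replicate block (0.108) and with only the groups compared (0.456). It was 0 to 1 leaving out single replicates, with 0 without replicate 1, 2 or 3 of Control-siRNA+Mix (adjusted p = 0.163, 0.122 and 0.211) or replicate 3 of PHGDH-siRNA+Mix (0.0608). The replicate block over all groups also moved PTGES past the threshold in the Control-siRNA arm (adjusted p = 0.0431), as did voom (0.0206) and median-of-ratios scaling (0.0488), and changed no other member's call besides that of ACOD1 above. In a fit of the groups compared alone, KYNU (adjusted p = 0.105) and NAMPT (0.0594) no longer passed with mix in the PHGDH-siRNA arm. With that setting NNMT (adjusted p = 2.38e-05) and PTGES newly passed with mix in the Control-siRNA arm.

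Sign changes were in differences that did not pass. Without the replicate 2 pair, PHGDH siRNA against control siRNA became 0.2956 with mix and 0.5756 without mix for NNMT and -0.0272 with mix for TYMP, and the interaction became 5e-04 for PTGS2. With voom the interaction of NNMT became 0.4481. Leaving out single replicates, PHGDH siRNA against control siRNA with mix ranged from -2.2336 to 0.2956 for NNMT, from -0.0272 to 0.2606 for TYMP and from -0.0899 to 0.1564 for PTGS2. Without mix it ranged from -1.0515 to 0.5756 for NNMT and from 0 to 0.0577 for ACOD1, which reached 0 without changing sign. The interaction ranged from -1.9017 to 0.7559 for NNMT, from -0.4493 to 0.0281 for NAMPT and from -0.0424 to 0.5194 for PTGES. The cause was not tested. Depth limits IDO1 and ACOD1 without mix most.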

Other observations

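Replicate 2 of the PHGDH-siRNA arms differed from replicates 1 and 3 in more genes than NNMT. Taking genes at least 10-fold apart from both other replicates in both arms, with 1 FPKM or more on the higher side, a rule chosen after the values were seen, 33 genes were lower and 24 higher in these libraries, and NNMT was among the lower. The same count for any other replicate number in either arm was 0 to 2 lower and 0 to 2 higher. The rule asks for FPKM and not for reads, so short RNAs such as MIR3174, SNORA79B and MT-TF were counted too. MIR3174 also varied within Control-siRNA (1.27, 0 and 0 FPKM). SPARC, CRABP2 and TLR2 were among the higher genes, and ALOX5 and HSPB8 among the lower. The cause was not tested.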
